A study of Mus musculus with 12 samples.

Results

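The nuclear genes of respiratory complex I were examined in RNA from the hearts of NBCe1 knockout mice and their controls. NBCe1, the product of Slc4a4, carries sodium and bicarbonate together into cells. Members were all genes of the count table whose symbol begins with Ndufa, Ndufb, Ndufc, Ndufs, Ndufv or Ndufaf, without the suffix of a pseudogene. This gave 46 genes of 24061 identifiers, and all 46 were abundant enough to be tested. They were split into 7 core subunits, 29 accessory subunits, 8 assembly factors and 2 related genes, Ndufa4 and Ndufa4l2. The mitochondrially encoded subunits and Ndufb1 were not analysed here, since no identifier of the count table was matched to their symbols.

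The knockout group (KO) held 6 hearts, K7 to K12, from Slc4a4flx/flx(Cre) mice. The wild-type group (WT) held 6 hearts, W1 to W6, from Slc4a4flx/flx mice, so both groups carried the floxed alleles and only KO mice carried Cre. All mice were male and 4 months old. According to the series design, the Cre transgene had a β-myosin promoter, used for its activity in heart muscle cells, and the floxed exon 12 of Slc4a4 was its target. The presence of Cre and the deletion therefore cannot be told apart.

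Whole heart was sequenced, 1 library per heart, so fewer cells of a type and less RNA per cell cannot be told apart either. Levels are given as CPM, which are counts brought to a common library size after scaling by TMM, a factor that aligns the bulk of genes between libraries. KO libraries held 10631869 to 12756955 counts and WT libraries 11367980 to 13327519. Slc4a4 averaged 49.9 ± 11.7 CPM in KO hearts and 87.2 ± 17.8 CPM in WT hearts (SD, n = 6 each; log2 fold change -0.81, edgeR adjusted p = 0.0891, exact two-sided permutation p = 0.00433). Slc4a4 lay below every WT heart in 5 of 6 KO hearts and overlapped in K8. The heart markers were present in every library, with 6 myocyte genes summing to 26625 to 30523 CPM in KO hearts and 27293 to 33211 CPM in WT hearts. W2 stood apart by its red cell genes and K7 by its liver genes. Between the groups, red cell markers were lower and Alb higher in KO, but none had an adjusted p under 0.05. The 3 red cell markers summed to 2445 to 6148 CPM in KO hearts and 2902 to 17647 CPM in WT hearts. All 3 were lower in KO, with a median log2 fold change of -0.82. Their unadjusted edgeR p was under 0.05 for 3 of 3 and their adjusted p for 0. The 3 liver markers summed to 1.60 to 67.7 CPM in KO hearts and 0.0775 to 1.52 CPM in WT hearts. Of these, only Alb was abundant enough to be tested. Alb was higher in every KO heart than in any WT heart (log2 fold change 5.43, edgeR adjusted p = 0.0832). Summed markers of endothelial cells were 628.7 to 694.7 CPM in KO hearts and 595.6 to 659.4 CPM in WT hearts, those of fibroblasts 1243 to 1593 CPM in KO hearts and 1097 to 1449 CPM in WT hearts, and those of smooth muscle and pericytes 551.9 to 741.4 CPM in KO hearts and 461.4 to 649.2 CPM in WT hearts. Their part in the members' values was not tested. Members are also given below without W2 and K7 where this moved a count.

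Complex I is the entry point of electrons from NADH into the respiratory chain of mitochondria, and it pumps protons across the inner membrane as it passes them to ubiquinone. Its core subunits, conserved from bacteria, carry the flavin, the iron-sulphur clusters and the proton channels. Accessory subunits surround this core and stabilise it, and assembly factors help to build it without remaining in the finished enzyme. The heart, which depends on oxidative metabolism, is among the tissues richest in this complex.

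Promoters were read from RefSeq for 40 of the 46 genes (GRCm38.p6, 250 bases before to 50 after the annotated start), since the comparison below concerns how these genes vary together. Binding motifs of factors known to drive nuclear genes of mitochondria were searched by letters on both strands. The NRF1 motif GCGCANGCG was found in 10 of 40 members (25%), against 7.08% of all 26742 genes with a window that was searched. It was present in 0 of 5 core subunits, 8 of 27 accessory subunits and 2 of 7 assembly factors. The ETS motif CCGGAAG, bound by GABPA among others, was found in 6 of 40 members (15%) and in 10% of all genes. The YY1 motif AANATGGCG was found in 8 of 40 members (20%) and in 2.78% of all genes, and the ERR motif TCAAGGTCA in 0 of 40 members and 0.456% of all genes. The median GC content was 59.3% over the 42 member windows and 53% over all 32544 windows. Such matches describe letters, not bound sites.
The 200 bases before the start are shown for the core subunit Ndufs3, for the accessory subunits Ndufb4 and Ndufa8, for the assembly factor Ndufaf4 and for Ndufa4, whose values are described below. Capitals mark the ETS motif in Ndufs3 and the NRF1 motif in Ndufb4, Ndufa8 and Ndufaf4, and Ndufa4 held none of these motifs.
Ndufs3, chr2:90904722-90904921, minus strand: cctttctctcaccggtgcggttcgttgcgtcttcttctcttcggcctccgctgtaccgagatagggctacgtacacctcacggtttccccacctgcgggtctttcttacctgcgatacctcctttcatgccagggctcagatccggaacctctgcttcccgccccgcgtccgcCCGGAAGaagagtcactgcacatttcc
Ndufb4, chr16:37654369-37654568, minus strand: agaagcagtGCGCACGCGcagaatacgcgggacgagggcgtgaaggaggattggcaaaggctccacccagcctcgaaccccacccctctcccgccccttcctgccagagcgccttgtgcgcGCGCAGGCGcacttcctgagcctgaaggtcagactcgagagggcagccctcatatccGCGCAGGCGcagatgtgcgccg
Ndufa8, chr2:36049339-36049538, minus strand: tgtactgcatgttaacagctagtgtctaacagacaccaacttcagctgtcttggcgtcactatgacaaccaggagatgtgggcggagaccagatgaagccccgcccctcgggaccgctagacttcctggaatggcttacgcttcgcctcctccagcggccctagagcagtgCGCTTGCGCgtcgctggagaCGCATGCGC
Ndufaf4, chr4:24897883-24898082, plus strand: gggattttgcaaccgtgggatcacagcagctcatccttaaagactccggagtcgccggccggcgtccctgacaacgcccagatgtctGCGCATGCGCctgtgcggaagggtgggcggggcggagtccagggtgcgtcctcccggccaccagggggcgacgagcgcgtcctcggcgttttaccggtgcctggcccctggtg
Ndufa4, chr6:11907451-11907650, minus strand: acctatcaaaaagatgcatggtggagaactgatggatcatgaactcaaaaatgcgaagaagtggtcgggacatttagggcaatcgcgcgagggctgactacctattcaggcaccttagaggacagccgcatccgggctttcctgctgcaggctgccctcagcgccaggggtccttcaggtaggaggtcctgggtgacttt
Ndufb4 held 3 NRF1 matches in these bases. Ndufa8 held 2, and Ndufaf4 held 2 that overlap on opposite strands.

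Levels per length showed a clear order of the classes in every heart. Here RPKM is the CPM divided by the length of all annotated exons in kilobases. The class median of the core subunits was 145.9 ± 4.9 RPKM in KO hearts and 146.2 ± 6.8 RPKM in WT hearts (SD, n = 6 each). That of the accessory subunits was 96.4 ± 9.2 RPKM in KO hearts and 101.9 ± 9.5 RPKM in WT hearts. Assembly factors had a median of 10.6 ± 1.0 RPKM in KO hearts and 10.5 ± 0.6 RPKM in WT hearts. The core median was 12.5 to 14.7 times the assembly median in KO hearts and 12.4 to 14.8 times in WT hearts. The core median exceeded the accessory median in all 12 hearts, by 1.35 to 1.68 times in KO hearts and 1.16 to 1.59 times in WT hearts. With the principal transcript of each gene as its length, an alternative added after seeing the data, the core to assembly ratio was 11.5 to 15.1 in KO hearts and 12.2 to 15.6 in WT hearts. With the longest transcript it was higher, at 15.1 to 19.8 in KO hearts and 15.03 to 19.2 in WT hearts.

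**Figure D1:**
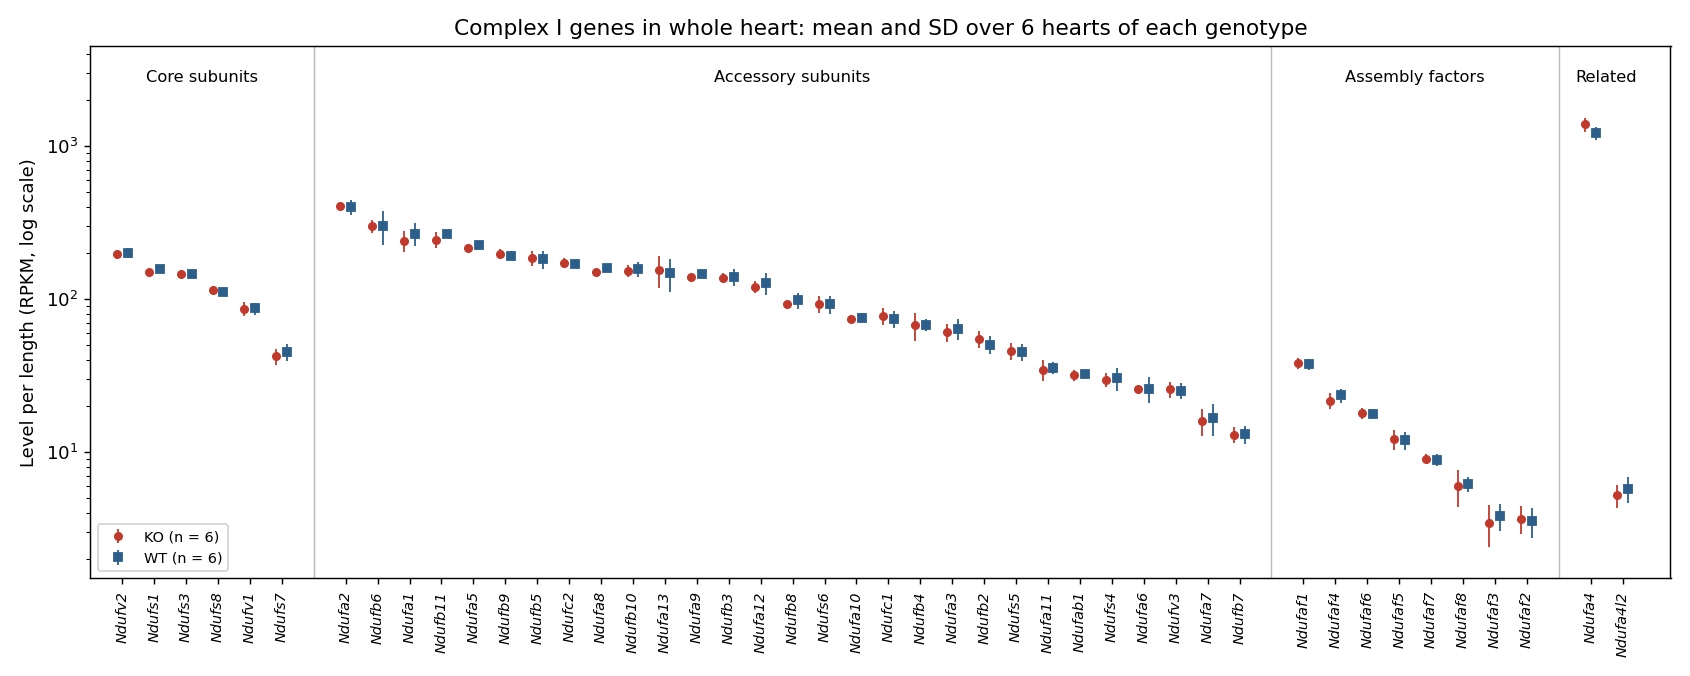
Level per length (RPKM, log axis) of the genes reported singly, with points for the mean and bars for the SD over 6 KO hearts (circles) and 6 WT hearts (squares). Assembly factors lie below 40 RPKM, while the core subunits shown lie between 42.3 and 200.9 RPKM, and the KO and WT points of each gene lie close together.

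Within classes the levels spread widely. Among core subunits, Ndufs7, which holds the last iron-sulphur cluster of the chain, was lowest at 42.3 ± 5.05 RPKM in KO hearts and 45.3 ± 5.74 RPKM in WT hearts. Accessory subunits ran in KO hearts from 13.04 RPKM for Ndufb7 to 407.5 RPKM for Ndufa2, and in WT hearts from 13.1 RPKM to 400.9 RPKM for the same genes. Assembly factors ran in KO hearts from 3.45 RPKM for Ndufaf3 to 38.0 RPKM for Ndufaf1, and in WT hearts from 3.55 RPKM for Ndufaf2 to 37.5 RPKM for Ndufaf1. Ndufaf1 takes part in building the membrane arm.

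Exon annotation sets part of this order. Ndufb5, an accessory subunit of the membrane arm, ranked 10 of 46 per length of all exons and 2 of 46 per length of the principal transcript. Ndufs1, the largest core subunit, ranked 14 and 3, Ndufb8 ranked 21 and 4, and Ndufb7 ranked 40 and 27. Ndufa4 ranked 1 by both lengths. The 46 genes held 0.946% to 1.10% of all counts in KO libraries and 0.985% to 1.03% in WT libraries. Ndufa4, Ndufs1 and Ndufb5 together held 38.7% of the 1453436 member reads.

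The comparison of genotypes asks whether deletion of NBCe1 in myocytes changes the transcripts of the complex. With edgeR (quasi-likelihood), 0 of the 46 genes had an adjusted p under 0.05, and 0% of the 13832 genes tested did. DESeq2 and limma-voom also called 0 members. At an unadjusted p under 0.05 there was 1 member, Ndufa4, against 4.06% of all genes, and 2.07% that were higher in KO as Ndufa4 was. Without W2 and K7 there were 2 members, Ndufa4 and Ndufb2, beside 708 of the 13853 genes then tested. Every member had an adjusted p of 0.999, and the values of the 2 groups overlapped for all 46 genes, where 0.253% of genes tested did not overlap.

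The differences were small, and their intervals narrow. The log2 fold change of KO over WT was below 0 for 28 of 46 members (60.9%), against 49.4% of all genes. It lay within 0.1 of 0 for 38 of 46 members (82.6%), against 58% of all genes. The median log2 fold change was -0.03 for core subunits, -0.02 for accessory subunits and 0.01 for assembly factors, beside a median near 0 over all genes tested. Their means were -0.03, -0.02 and -0.02, so mean and median differed in sign for the assembly factors. The median standard error was 0.06 for core subunits, 0.09 for accessory subunits and 0.10 for assembly factors, against 0.12 over all genes. The 95% interval included 0 for 45 of 46 members. It lay between a 25% decrease and a 25% increase for 7 of 7 core subunits, 28 of 29 accessory subunits and 5 of 8 assembly factors.

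**Figure D2:**
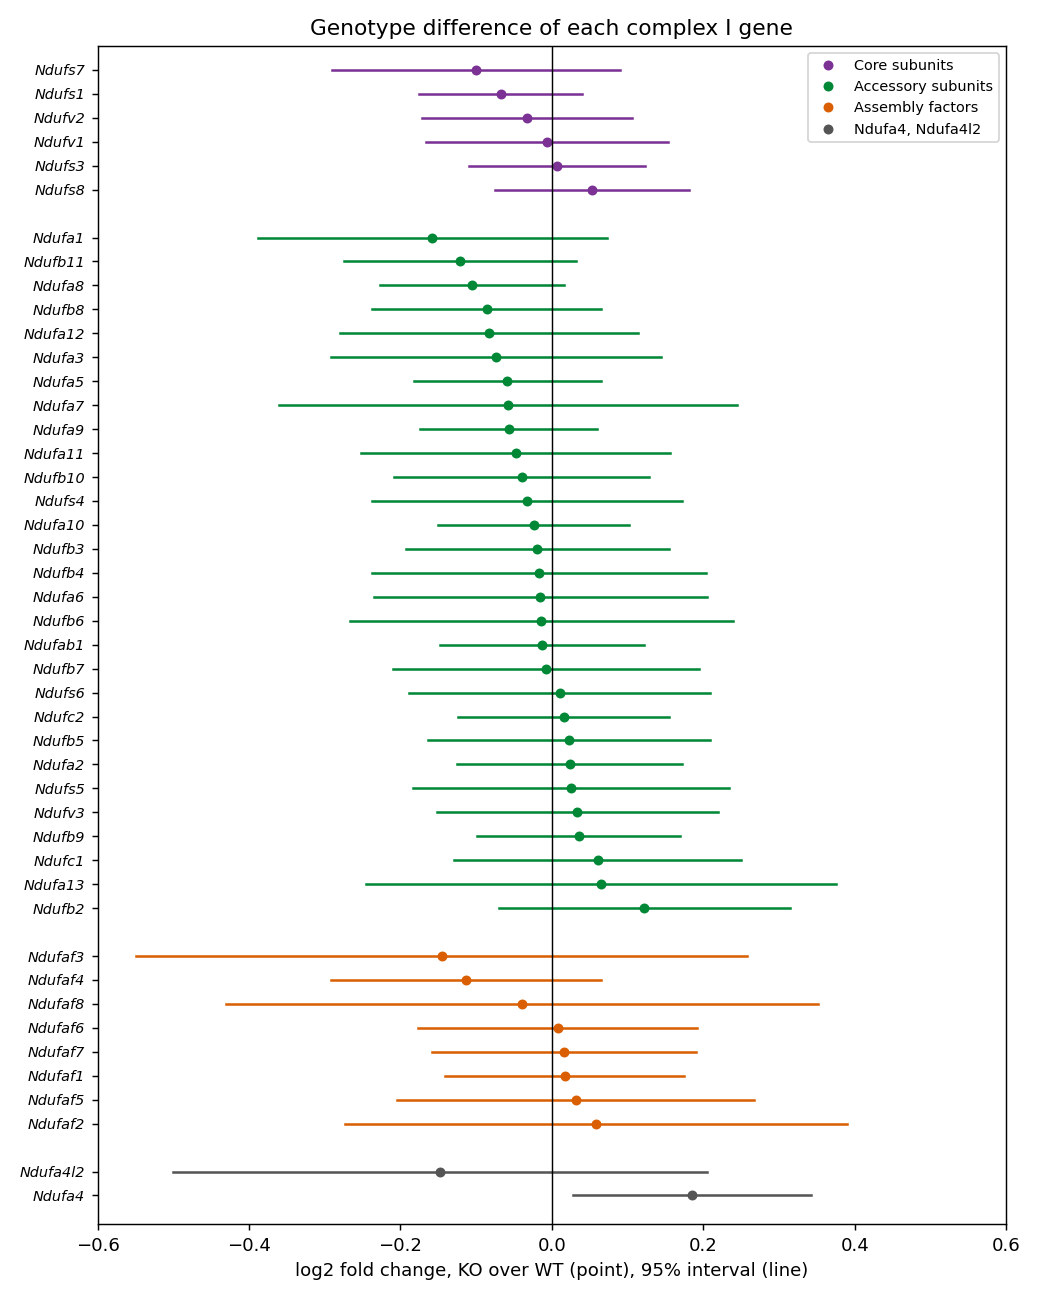
Log2 fold change of KO over WT (horizontal axis) for each gene shown, with points for the estimate and lines for the 95% interval, grouped and coloured by class. The interval of Ndufa4 is the only one that leaves out 0, and the widest intervals belong to low assembly factors such as Ndufaf3.

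Among the core subunits, 2 had positive and 5 had negative fold changes. Ndufs1, which carries iron-sulphur clusters of the NADH-oxidising arm, ran from 1181 to 1254 CPM with a median of 1226 CPM in KO hearts, and from 1222 to 1350 CPM with a median of 1275 CPM in WT hearts. Of the KO hearts 3 lay below every WT heart, and all 6 lay below the WT median. Ndufs1 was 4.6% lower in KO (95% interval from -11.5% to 2.8%; edgeR adjusted p = 0.999). The exact two-sided permutation p of Ndufs1 was 0.0195 before any adjustment. An exact p under 0.05 occurred for 2 of 46 members (4.35%), Ndufs1 and Ndufa8, and for 4.47% of all genes.

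Ndufs7 ran from 61.7 to 85.4 CPM in KO hearts (median 70.5) and from 67.3 to 92.0 CPM in WT hearts (median 75.2). Most KO hearts lay inside the WT range, with a log2 fold change of -0.10 (SE 0.09). Ndufs8, which carries a pair of iron-sulphur clusters, ran from 142.6 to 162.4 CPM in KO hearts (median 146.8) and from 133.2 to 155.1 CPM in WT hearts (median 139.8). The 6 KO hearts all lay above the WT median, within a wide overlap (log2 fold change 0.05, SE 0.06). K9 was the highest heart for this gene. Ndufs3, a subunit of the arm that reaches into the matrix, averaged 319.9 ± 13.9 CPM in KO hearts and 318.4 ± 14.8 CPM in WT hearts (SD, n = 6 each; log2 fold change 0.01). Ndufv1, which binds NADH and the flavin, averaged 228.1 ± 24.3 CPM in KO hearts and 229.1 ± 21.1 CPM in WT hearts (log2 fold change -0.01). For both genes the sign of the fold change turned when single hearts were left out.

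Of the accessory subunits, 10 had positive and 19 had negative fold changes. Ndufa8, a subunit with twin disulphides on the intermembrane side, had the smallest edgeR p of this class. It ran from 123.3 to 137.9 CPM with a median of 125.9 CPM in KO hearts, and from 131.3 to 145.9 CPM with a median of 137.0 CPM in WT hearts. Of the 6 KO hearts 4 lay below every WT heart, and K7 and K11 lay inside the WT range. Ndufa8 was 7.0% lower in KO (95% interval from -14.5% to 1.1%; edgeR adjusted p = 0.999, exact two-sided permutation p = 0.0216).

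Ndufb11, an X-linked subunit of the membrane arm, ran from 195.0 to 259.7 CPM in KO hearts (median 215.7) and from 223.9 to 258.6 CPM in WT hearts (median 240.8). In KO, 3 hearts lay below every WT heart and K11 lay above every WT heart. The log2 fold change was -0.12 (SE 0.07), and it ran from -0.17 to -0.09 when single hearts were left out. The value of -0.17 came without K11 and that of -0.09 without K8. K11 was the highest KO heart for this gene, so leaving it out lowers the KO mean by construction. Ndufa1, the other X-linked member, ran from 77.1 to 115.2 CPM in KO hearts and from 85.6 to 143.9 CPM in WT hearts (log2 fold change -0.16, SE 0.11). Ndufb2 had the most positive value of the class. It ran from 252.3 to 368.4 CPM in KO hearts (median 310.3) and from 235.6 to 338.8 CPM in WT hearts (median 281.6), with a log2 fold change of 0.12 (SE 0.09). Without W2 and K7 its log2 fold change was 0.23 (edgeR adjusted p = 0.965). Ndufc1 averaged 115.8 ± 14.97 CPM in KO hearts and 111.0 ± 13.6 CPM in WT hearts (log2 fold change 0.06, SE 0.09).

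Accessory subunits chosen for their known roles had log2 fold changes within 0.1 of 0, as did 25 of the 29 accessory subunits. Ndufs4, whose loss causes a Leigh-like disease in mice, averaged 80.7 ± 8.2 CPM in KO hearts and 82.5 ± 14.2 CPM in WT hearts (log2 fold change -0.03, SE 0.10). Ndufab1, the mitochondrial acyl carrier protein, averaged 220.0 ± 17.8 CPM in KO hearts and 222.0 ± 12.1 CPM in WT hearts (log2 fold change -0.01, SE 0.06). Ndufb4 averaged 128.9 ± 26.7 CPM in KO hearts and 130.4 ± 10.9 CPM in WT hearts (log2 fold change -0.02, SE 0.11). Its KO hearts were more spread, with 2 above and 2 below every WT heart. Ndufa12, a paralogue of the assembly factor Ndufaf2, averaged 189.4 ± 17.3 CPM in KO hearts and 200.6 ± 32.9 CPM in WT hearts (log2 fold change -0.08, SE 0.09).

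Of the assembly factors, 5 had positive and 3 had negative fold changes. Ndufaf4 ran from 74.8 to 97.8 CPM with a median of 80.6 CPM in KO hearts, and from 78.0 to 102.5 CPM with a median of 91.8 CPM in WT hearts. The groups overlapped over most of their range, with 2 KO hearts below every WT heart (log2 fold change -0.11, SE 0.09, edgeR adjusted p = 0.999). Ndufaf3, which works together with Ndufaf4, ran from 3.78 CPM in K9 to 9.50 CPM in K11 among KO hearts and from 5.22 to 9.23 CPM in WT hearts. With 941 reads over all 12 hearts its interval ran from -31.6% to 19.6%, the lowest bound of the members.

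Ndufaf2 averaged 10.99 ± 2.3 CPM in KO hearts and 10.6 ± 2.3 CPM in WT hearts (log2 fold change 0.06, SE 0.16), a value that became -0.05 without W2 and K7. Ndufaf5 averaged 21.9 ± 3.3 CPM in KO hearts and 21.4 ± 2.9 CPM in WT hearts (log2 fold change 0.03, SE 0.11). Ndufaf1 averaged 57.0 ± 4.9 CPM in KO hearts and 56.3 ± 4.3 CPM in WT hearts (log2 fold change 0.02, SE 0.08). Ndufaf8 had the fewest reads of all members, 726, and ran from 3.25 to 6.54 CPM in KO hearts and from 4.49 to 6.04 CPM in WT hearts.

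Ndufa4, first described in complex I and now placed in complex IV, had the most positive fold change of the 46 genes. It ran from 1727 to 2259 CPM with a median of 1893 CPM in KO hearts, and from 1521 to 1955 CPM with a median of 1659 CPM in WT hearts. All 6 KO hearts lay above the WT median, but only K9 lay above every WT heart. The difference was 13.7% (95% interval from 2.0% to 26.7%), with an unadjusted edgeR p of 0.0232 and an edgeR adjusted p of 0.999. The exact two-sided permutation p was 0.0563. Over 18 alternatives the log2 fold change ran from 0.13 to 0.23 and the edgeR, DESeq2 or limma-voom adjusted p was never under 0.885. Without K9 the log2 fold change was 0.13 and the unadjusted edgeR p 0.0839, and the unadjusted p also passed 0.05 without W1 (0.0553) and without W6 (0.0505). Ndufa4l2, its paralogue and a gene induced by low oxygen, was at 5.22 ± 0.89 RPKM in KO hearts and 5.78 ± 1.09 RPKM in WT hearts, against 1383 ± 140.4 RPKM in KO hearts and 1217 ± 117.8 RPKM in WT hearts for Ndufa4. In CPM it ran from 4.08 to 6.63 CPM in KO hearts and from 4.76 to 7.69 CPM in WT hearts (log2 fold change -0.15, SE 0.17).

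**Figure D3:**
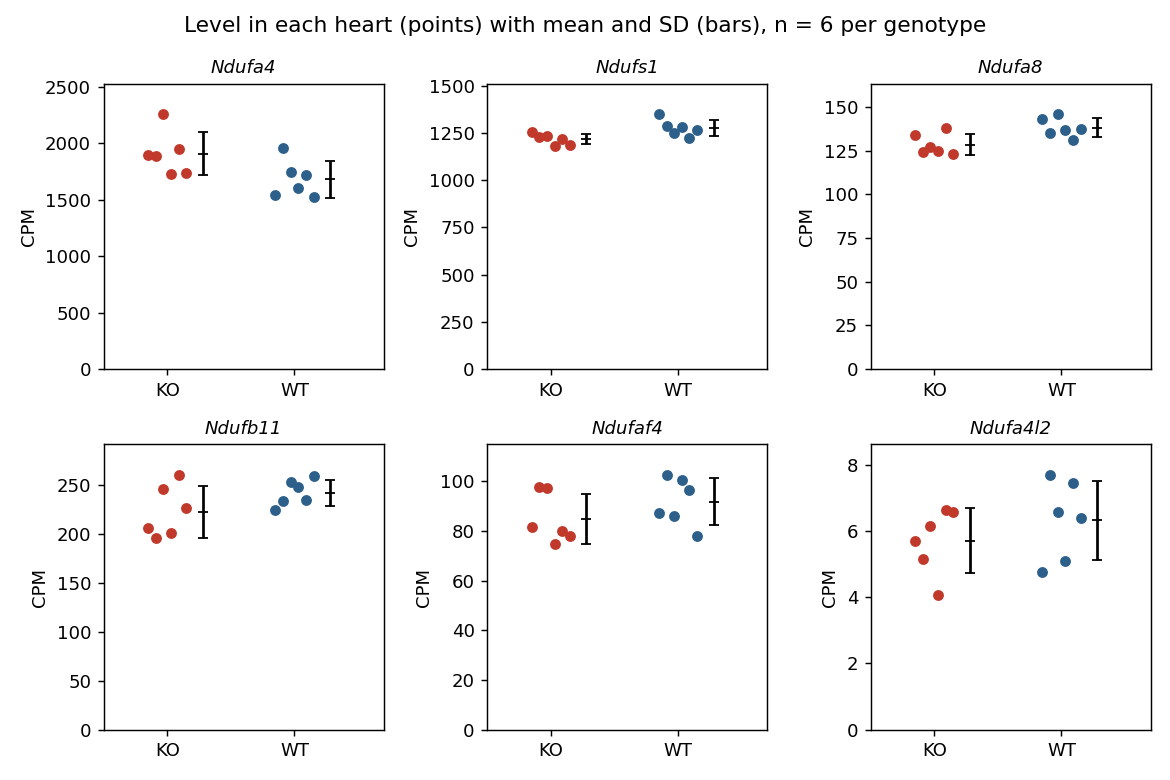
CPM (vertical axes, from 0) of Ndufa4, Ndufs1, Ndufa8, Ndufb11, Ndufaf4 and Ndufa4l2, with a point for each of 6 KO hearts (left) and 6 WT hearts (right) and bars for mean and SD. The groups overlap in all 6 genes, and K9 is the highest point of Ndufa4 at 2259 CPM.

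The class scores varied between hearts of the same genotype. The class score is the mean log2 deviation of a class from its 12-heart average. KO minus WT, it differed by -0.03 for core, -0.02 for accessory and -0.03 for assembly genes. Its SD over hearts was 0.056 in KO and 0.044 in WT for core genes, and 0.079 in KO and 0.062 in WT for accessory genes. For assembly genes the SD was 0.091 in KO and 0.045 in WT. The differences of the scores were not tested. Over single hearts the accessory score ran from -0.12 in K10 to 0.10 in K9 among KO hearts, and from -0.09 in W6 to 0.09 in W2 among WT hearts. The core score ran from -0.10 in K10 to 0.06 in K7 among KO hearts, and from -0.03 in W4 to 0.09 in W1 among WT hearts. In K10, 38 of 46 members lay below their own average, and in K9 only 9 did. The other hearts had 14 to 32 such members.

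**Figure D4:**
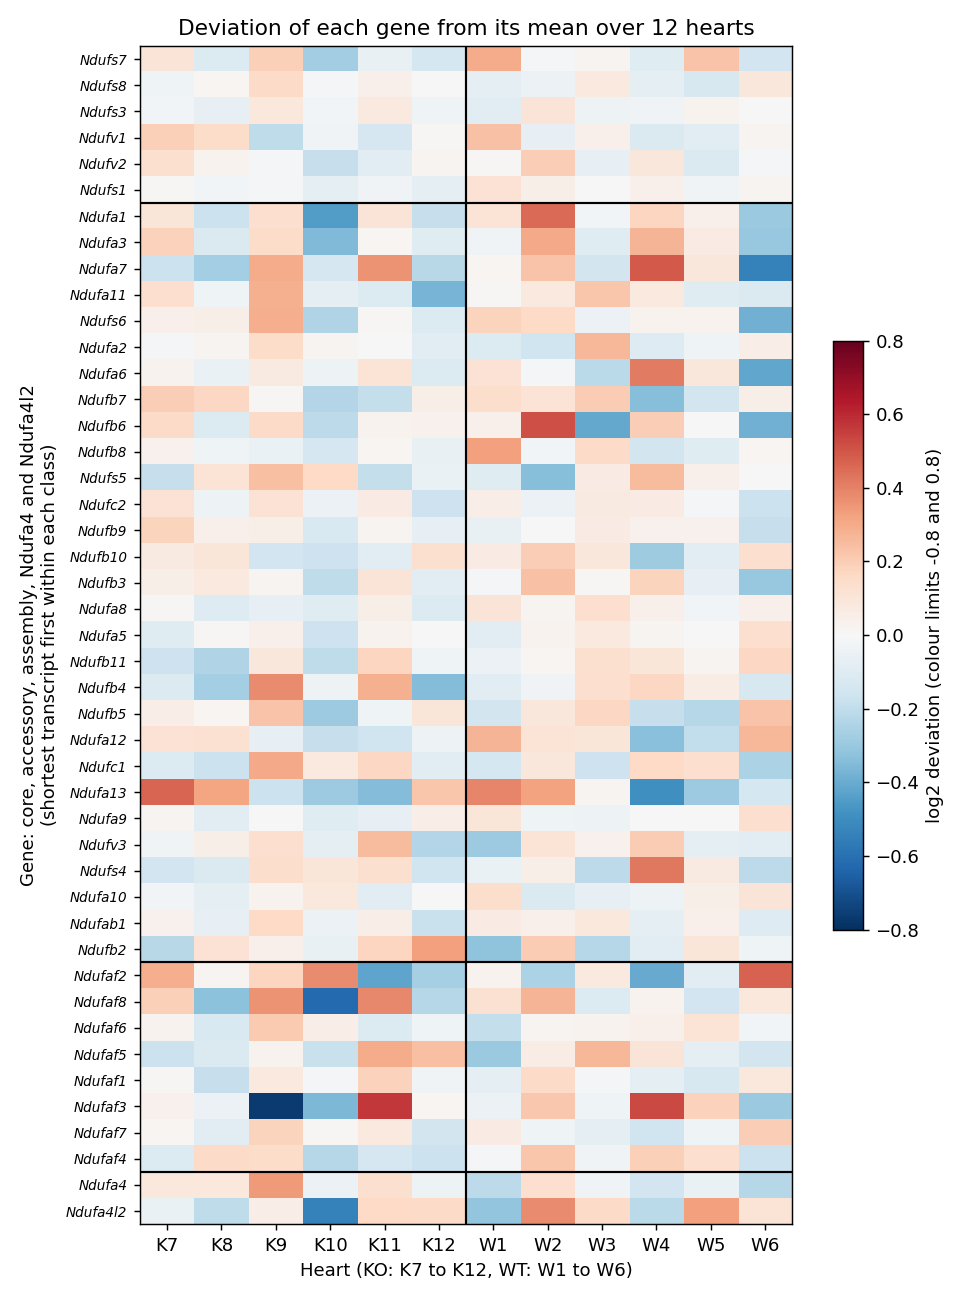
Log2 deviation of each gene shown (rows, grouped by class with the shortest transcript first) from its mean over 12 hearts, in KO hearts K7 to K12 and WT hearts W1 to W6 (columns), red above and blue below the mean. Ndufa1 (419 bases) is at -0.45 in K10 and 0.45 in W2, while Ndufs5 (680 bases) is at 0.16 in K10 and -0.34 in W2. Core genes have mostly pale rows.

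Core subunits varied least, with a median SD of log2 CPM over hearts of 0.07 in KO and 0.09 in WT, against 0.15 in KO and 0.18 in WT for accessory subunits. They also have more reads and longer transcripts, with a median principal transcript of 1623 bases against 763 bases for accessory subunits. Ndufa13, an accessory subunit also named GRIM-19, varied between hearts. It ran from 144.6 CPM in K11 to 253.6 CPM in K7 among KO hearts and from 130.5 CPM in W4 to 240.4 CPM in W1 among WT hearts. In Ndufa7 the range was 24.3 to 37.6 CPM in KO hearts and 20.1 to 41.1 CPM in WT hearts, with W6 lowest and W4 highest.

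Short transcripts as a group also differed between libraries. The 213 other tested genes with a principal transcript of at most 700 bases had a median deviation of -0.11 in K10, -0.14 in K12 and -0.10 in K8, and of 0.08 in K7, 0.08 in K9 and 0.10 in K11. Among WT hearts it was 0.03 in W1, 0.11 in W2, -0.01 in W3, 0.06 in W4, 0.06 in W5 and -0.11 in W6. The 14 members of that length had median deviations of 0.09 in K7, -0.03 in K8, 0.15 in K9, -0.11 in K10, 0.02 in K11 and -0.10 in K12. In WT hearts these members were at 0.04 in W1, 0.09 in W2, 0.02 in W3, 0.07 in W4, -0.01 in W5 and -0.20 in W6. The short members were nearer 0 than the other short genes in K8, K10, K11, K12, W2 and W5, and farther from 0 in the other hearts. In K10 the gap was small, at -0.105 against -0.109. The longer members were also low in K10, at -0.10, and lay near 0 in W6. Base composition also differed between libraries, with 1428 other genes of at least 58% GC at -0.13 in W4 and 0.11 in W1. The 5 members of that GC content were at -0.22 in W4 and 0.14 in W1. They differed in sign from the other GC-rich genes in W6, at -0.12 against 0.11, and in W2, at 0.11 against -0.02. The signs also differed in K8, at -0.03 for these members against 0.02, and in K9, at 0.05 against -0.04. In K10 they were at -0.28, where the other genes were at -0.01. The part of length and composition in the members' values was not tested.

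**Figure D5:**
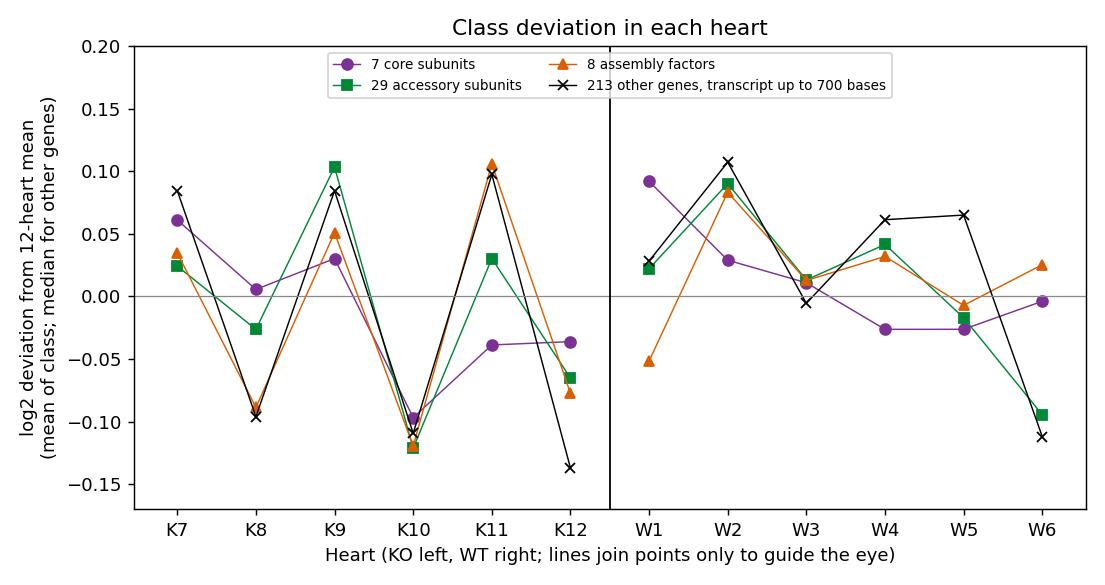
Log2 deviation from the 12-heart mean (vertical axis) in each KO heart (left) and WT heart (right) for the 3 classes of complex I genes, and the median of 213 other short genes (crosses). All 3 classes are lowest in K10, where the short genes are at -0.11, while the short genes are lowest in K12, at -0.14. The KO and WT ranges overlap for every class.

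Some members share sequence with other genes, which limits their levels. Ndufs5 had 5546 reads and its pseudogene copy Ndufs5-ps, left out by the symbol rule, had 10877. The copy matched 46.9% of the Ndufs5 transcript at up to 99.4% identity. Reads of Ndufs5 were 0.494 to 0.528 times those of Ndufs5-ps in KO hearts and 0.464 to 0.544 times in WT hearts. Ndufs5 averaged 39.6 ± 5.0 CPM in KO hearts and 38.9 ± 5.2 CPM in WT hearts, and its log2 fold change was 0.03 alone and 0.01 with both counted together. Other annotated genes matched 75.7% of the Ndufs3 transcript, 62.9% of Ndufb11, 61.3% of Ndufs6 and 40.2% of Ndufb4 at 95% identity or more. Exons of Ndufaf2, Ndufb6 and Ndufa13 overlap antisense genes over 65.6%, 39% and 30% of their bases, and none of the sources used states how counting treated strand. Of these genes, Ndufs3, Ndufb11, Ndufb4 and Ndufaf2 were named by the rule given below. Ndufs5, Ndufs6, Ndufb6 and Ndufa13 were chosen after their values were seen. The levels of all these genes are uncertain.

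Genes that act beside the members gave no call either. Of 10 tested assembly factors without the Nduf name, 4 had positive and 6 had negative fold changes, 0 passed the adjusted threshold, and the median log2 fold change was -0.01. The nearest to 0 was Ecsit, at 39.0 ± 4.8 CPM in KO hearts and 39.0 ± 3.4 CPM in WT hearts, and Foxred1 was at 83.1 ± 5.7 CPM in KO hearts and 88.5 ± 7.3 CPM in WT hearts. Of 10 regulators of mitochondrial genes, 5 had positive and 5 had negative fold changes, and 0 passed. Ppargc1b, a coactivator of mitochondrial genes, averaged 29.7 ± 3.2 CPM in KO hearts and 25.3 ± 4.1 CPM in WT hearts (log2 fold change 0.23, SE 0.11, edgeR adjusted p = 0.999). Nrf1 averaged 10.3 ± 1.8 CPM in KO hearts and 9.83 ± 1.59 CPM in WT hearts, and Gabpa 110.2 ± 9.99 CPM in KO hearts and 109.7 ± 9.5 CPM in WT hearts. Of 46 tested subunits of complexes II to V, 0 passed and 29 had negative fold changes, with a median of -0.03, and the difference between these and complex I was not tested.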

How the data were processed

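RNA of whole hearts was sequenced from 6 KO and 6 WT mice, grouped by the genotype in the titles. The deposited table holds raw read counts per gene for 24061 NCBI gene identifiers, made by the authors from reads aligned with TopHat, per the design text. The submitters' processing notes also name bcl2fastq, CASAVA 1.8, DESeq and the mm10 build. None of the sources used states the counting program, annotation or strand setting. Symbols came from RefSeq GRCm38.p6 (23976 identifiers matched) and exon lengths from GENCODE M21, found for 46 of 46 members.

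Counts were tested with edgeR 4.0.16 (filterByExpr with minimum count 10 and minimum total 15, TMM, quasi-likelihood F test, Benjamini-Hochberg at 0.05 over 13832 genes) in R 4.3.3. Intervals are at 95%, from the standard error of the F statistic. Exact permutation tests used 924 regroupings of log2(CPM + 0.1). Alternatives were DESeq2 1.42.0, limma-voom (limma 3.58.1), other scalings, no filter, and each heart left out. Copies were found with BLAST 2.17.0+ at 95% identity over 100 bases. Plots were drawn with matplotlib 3.10.9.

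The members, classes and gene lists were chosen with earlier results of these data known. Fold changes are given for members past the threshold, for the 2 smallest p in each direction of each class, and for 10 fixed members, and levels for the highest and lowest member of each class per length. Ndufa1, Ndufa7, Ndufa13, Ndufb6, Ndufs5, Ndufs6 and Ndufaf8 were named after their values were seen. No library was a repeat of another, since chi-square over degrees of freedom was 6.37 to 41.7 in the 66 pairs. Per the design text each genotype had 6 animals. For 1 member, single values are not reported here, but it remains in the counts and class summaries.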

Additional observations from a re-analysis of the deposited data

Results flagged for a closer look

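Among 98 sets of 6 hearts (46 genes and 3 class scores in each genotype), 1 had a heart that lay apart. By chance about 4.9 would, or 1 set in 20. Ndufs8 stood at 162.4 CPM in K9, against 142.6 to 149.9 CPM in the other KO hearts.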

How the results depend on the processing

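No member was called under the alternatives tried. Over all genes 0 were called by edgeR, 11 by DESeq2 and 16 with no filter on low counts, and 0 to 2 when single hearts were left out. Members at an unadjusted p under 0.05 numbered 2 without W2 and K7, beside 708 of all genes, and 0 to 2 when single hearts were left out, beside 454 to 779 of all genes. Slc4a4 passed the adjusted threshold with DESeq2 (-0.81) with no filter (-0.81) and without K8 (-0.92, edgeR adjusted p = 0.0275), and its log2 fold change ran from -0.92 to -0.74 over single hearts left out. The sign of Ndufaf2 turned without W2 and K7 (-0.045).

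With single hearts left out, the sign turned for Ndufs3 (-0.011 to 0.024), Ndufv1 (-0.046 to 0.043), Ndufs4 (-0.076 to 0.057), Ndufab1 (-0.048 to 0.020), Ndufb4 (-0.10 to 0.045), Ndufs5 (-0.039 to 0.077), Ndufaf1 (-0.021 to 0.054), Ndufaf2 (-0.015 to 0.17) and Ndufaf5 (-0.029 to 0.092). Negative members numbered 24 without K12 and 35 without K9. The class medians per length were 251.3 RPKM (core), 132.5 RPKM (accessory) and 14.6 RPKM (assembly) with the longest transcript, and 251.3, 145.6 and 18.4 RPKM with the principal transcript. The alternatives without W2 and K7, with Ndufs5-ps added and with principal transcripts were chosen after seeing the data. The causes of these shifts were not tested. No paired analysis was made because the labels name no pairing of KO and WT hearts. Ndufaf3, Ndufa4l2 and Ndufaf8 had the fewest reads, 941, 859 and 726 over all hearts.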
